A study of Sus scrofa with 20 samples.

Results

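Collagen IV and laminin are the polymers from which basement membranes are built. In the testis such a membrane surrounds every seminiferous tubule, where Sertoli cells and peritubular myoid cells lay it down together, and others surround the blood vessels and smooth muscle. Collagen IV chains assemble into triple helices, and each laminin is a trimer of an alpha, a beta and a gamma chain, with nidogens and perlecan linking the networks. The results below concern 4 of the 21306 Ensembl genes listed for both breeds: *COL4A1* (ENSSSCG00000009544) and *COL4A2* (ENSSSCG00000009545), which encode the chains of the most widespread collagen IV, *LAMB2* (ENSSSCG00000011377), which encodes the laminin beta2 chain, and *LAMC3* (ENSSSCG00000005710), which encodes the laminin gamma3 chain, placed in rodent testis at the junction of Sertoli cells and spermatids. They were chosen by their high against low DFI differences in one or both breeds, with these values known, so those differences are given as a description without a test.

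The study compared testis transcripts of boars at either extreme of the DNA fragmentation index (DFI) of their sperm, a percentage obtained by flow cytometry of sperm stained with acridine orange. Testis pieces were taken at slaughter from adult artificial insemination boars, 1 library per boar, and the boars were selected for extreme DFI. DFI values given here are those deposited with the samples, which for some Landrace boars differ slightly from the published means. There were 5 Norsvin Landrace boars with low DFI (0.62 to 1.70%, named here LL1 to LL5) and 4 with high DFI (5.58 to 8.04%, LH1 to LH4), and 5 Norsvin Duroc boars with low DFI (1.05 to 1.13%, DL1 to DL5) and 6 with high DFI (4.13 to 5.63%, DH1 to DH6). None received a treatment, and the groups are breeds and extremes of a trait, without a manipulation. Numbers within a group follow the deposition order and pair nothing.

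Total counts ranged from 18086448 to 51782156 in Landrace and from 34527935 to 47621706 in Duroc. The 4 genes had between 447 and 4481 counts in every boar, so counting error was small beside the spread of their levels between boars. Levels are CPM, counts relative to library size, scaled by the trimmed mean of M values, and are compared between boars for a gene, not between genes, because gene length was not corrected for. The tissue carried germ cell and somatic transcripts of the testis: all 8 spermatid markers, 7 of 8 Sertoli markers and 4 of 6 Leydig markers were listed, with at least 5228, 94 and 261 counts in every boar. Title numbers of 6 Landrace boars are close to each other (LL1, LL2 and the high DFI boars), whereas those of LL3 to LL5, all of low DFI, are not, and what the numbers mean is not stated.

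*COL4A1* covered the widest fold range of the 4 genes over the 20 boars. In low DFI Landrace boars LL1 to LL5 it was at 16.6, 13.0, 20.2, 28.1 and 20.7 CPM, and in high DFI Landrace boars LH1 to LH4 at 43.1, 61.6, 26.2 and 29.6 CPM. Of these, 3 of 4 high DFI boars therefore lay above every low DFI boar, and LH3 lay below LL4. In low DFI Duroc boars DL1 to DL5 it was at 108, 27.1, 20.6, 21.0 and 57.7 CPM, and the 6 high DFI Duroc boars ran from 37.7 to 81.4 CPM with a median of 68.3 CPM. The highest level of all 20 boars was thus found in a low DFI animal, DL1, whereas DL2, DL3 and DL4 lay below all high DFI Duroc boars.

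*COL4A2* repeated this order almost boar by boar. Its levels in LL1 to LL5 were 16.2, 12.6, 18.9, 24.4 and 15.4 CPM, and in LH1 to LH4 they were 35.3, 56.2, 23.6 and 25.1 CPM. In DL1 to DL5 they were 72.9, 20.3, 18.1, 15.6 and 39.6 CPM, and the high DFI Duroc boars ran from 29.9 to 63.7 CPM with a median of 50.5 CPM. Again LH3 fell below LL4, and DL1 exceeded every other boar.

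*LAMB2* was at 11.6, 17.4, 13.1, 18.7 and 15.1 CPM in LL1 to LL5 and at 28.5, 27.3, 19.99 and 32.2 CPM in LH1 to LH4. The Landrace groups did not overlap. In DL1 to DL5 it was at 17.9, 17.4, 14.2, 13.2 and 30.2 CPM, and the high DFI Duroc boars ran from 25.9 to 45.7 CPM with a median of 28.1 CPM. Here DL5, not DL1, was the low DFI boar that reached into the range of the high DFI group, and DH4 stood above its own group.

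*LAMC3* was at 30.2, 31.3, 33.3, 45.1 and 31.9 CPM in LL1 to LL5 and at 66.2, 58.7, 46.1 and 53.2 CPM in LH1 to LH4, again without overlap. In DL1 to DL5 it was at 31.4, 42.3, 26.3, 71.4 and 62.7 CPM, and the high DFI Duroc boars ran from 61.9 to 98.8 CPM with a median of 82.6 CPM. DL1, which led all boars for both collagen IV chains, had the lowest level but one of the Duroc boars for this laminin chain, and DL4, which was low for the collagen chains, was the highest of the low DFI Duroc boars.

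**Figure D1:**
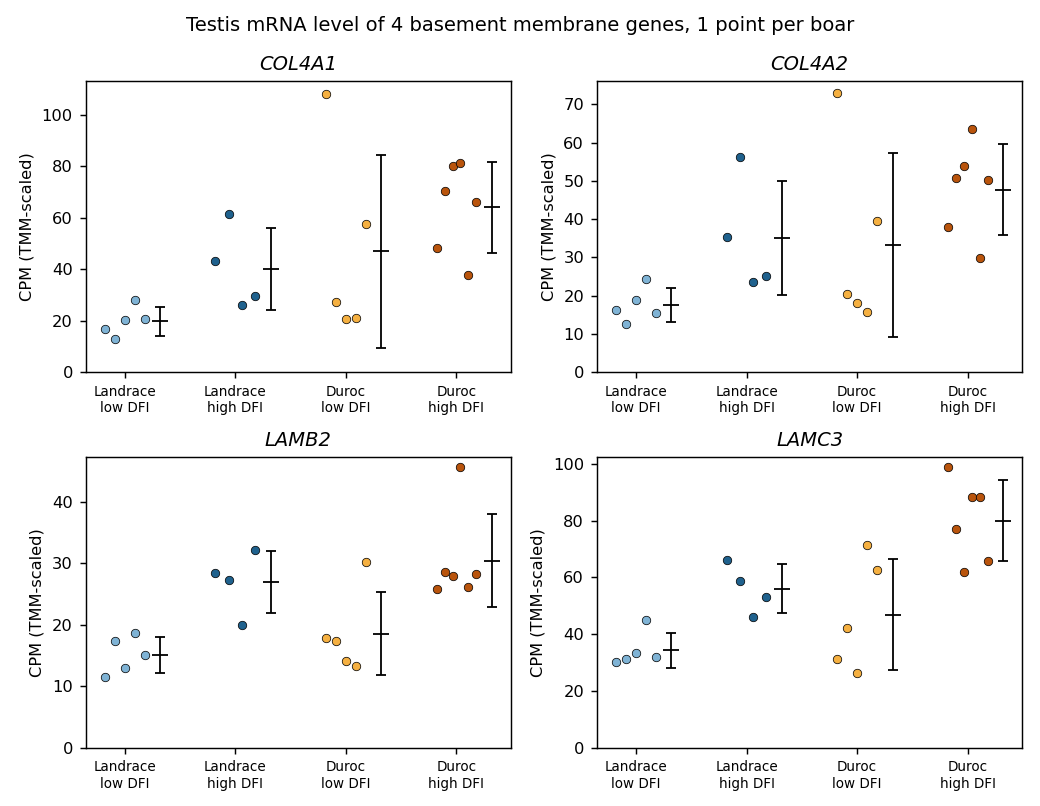
CPM (TMM-scaled, linear axis from 0) of each gene in each boar, 1 point per boar, with the mean and SD of each group as a bar beside the points. The 4 high DFI Landrace boars lie above all 5 low DFI boars for *LAMB2* and *LAMC3*, and boar DL1 has the highest *COL4A1* and *COL4A2* of all 20 boars at 108 and 72.9 CPM.

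By the group medians all 4 genes had the same order, with low DFI Landrace lowest, then low DFI Duroc, high DFI Landrace and high DFI Duroc. Median *COL4A1* ran along this order from 20.2 through 27.1 and 36.3 to 68.3 CPM, and median *LAMC3* from 31.9 through 42.3 and 56.0 to 82.6 CPM. For *LAMB2* the medians of the high DFI groups were nearly equal, at 27.9 and 28.1 CPM. Neighbouring groups in this order overlapped for every gene, so the order is one of medians only. The group means differed from it for *COL4A1*, where DL1 placed low DFI Duroc (46.9 ± 37.5 CPM, SD, n = 5) above high DFI Landrace (40.1 ± 16.1 CPM, SD, n = 4).

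The fitted high against low DFI difference in Landrace was a log2 fold change (logFC) of 1.03 (SE 0.27) for *COL4A1* and 1.0 (SE 0.26) for *COL4A2*, about a doubling of both chains. It was 0.84 (SE 0.17) for *LAMB2* and 0.71 (SE 0.14) for *LAMC3*. In Duroc it was 0.45 (SE 0.41), 0.52 (SE 0.37), 0.71 (SE 0.22) and 0.77 (SE 0.24) in the same order. The laminin chains thus had like differences in both breeds, whereas those of the collagen chains were smaller in Duroc than in Landrace and not much larger than their SE. Without DL1 the Duroc difference became 1.01 for *COL4A1* and 1.03 for *COL4A2*, close to the Landrace values. Without DL2, DL3 or DL4 it was 0.26 to 0.30 for *COL4A1*, and without DL4 0.34 for *COL4A2*. Without LH2, the highest Landrace boar for both chains, the Landrace differences were 0.74 and 0.68. The breed difference in these logFC (Duroc minus Landrace) was -0.58 (SE 0.55) for *COL4A1* and -0.48 (SE 0.50) for *COL4A2* with DL1, -0.01 and 0.03 without it, and -0.28 and -0.15 without LH2. It was -0.12 (SE 0.30) for *LAMB2* and 0.07 (SE 0.31) for *LAMC3*.

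These DFI contrasts chose the genes, and their counts are given only beside the background. In Landrace 2 of the 4 genes, *LAMB2* and *LAMC3*, had every high above every low DFI boar, as did 4.41% of the 14519 genes tested, and in Duroc 0 of the 4 did, against 2.02% of 14666 genes. With edgeR's quasi-likelihood test and Benjamini-Hochberg adjustment 0 of the 4 were called in either breed, where 0.0% of genes were called higher in Landrace and 0.00682% in Duroc. With the likelihood ratio test, the test used in the study, 4 of the 4 were called higher in Landrace, where 5.14% of genes were, and *LAMB2* and *LAMC3* in Duroc, where 2.0% of genes were. The study reported the same genes in the same breeds from that test on these boars. These calls therefore follow from the choice of the genes and are not a test of them. Among the 6 Landrace boars with close title numbers the differences were 1.44, 1.29, 0.91 and 0.88 for *COL4A1*, *COL4A2*, *LAMB2* and *LAMC3*. On the low DFI side these values rest on LL1 and LL2 alone, which had the lowest *COL4A1* levels of all boars.

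**Figure D2:**
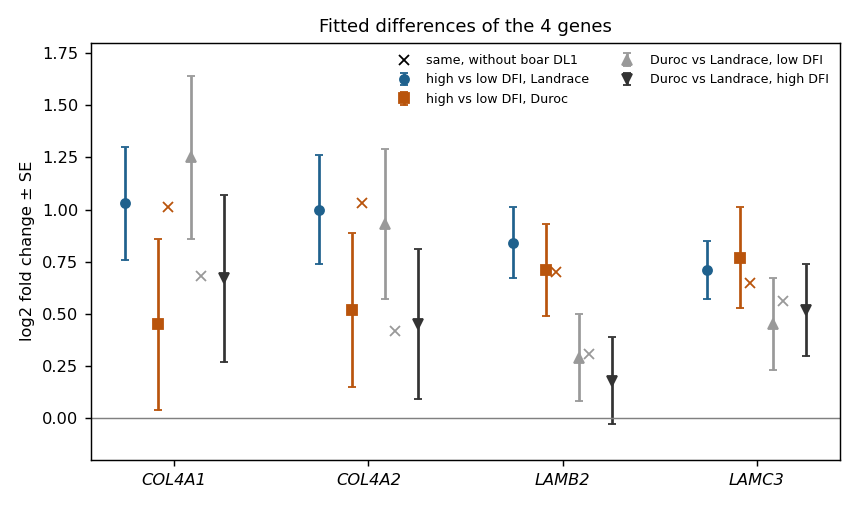
Fitted log2 fold changes (y axis, points with SE bars) of the 4 genes in the DFI contrast of each breed and the breed contrast of each DFI group, with crosses for the fit without boar DL1 where that boar is part of the contrast. Without DL1 the Duroc DFI difference of *COL4A1* moves from 0.45 to 1.01 and its breed difference at low DFI from 1.25 to 0.68, whereas the values of *LAMB2* hardly move.

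The breed contrasts were not used to choose the genes and were tested in a fit of all 20 boars. At low DFI, *COL4A1* was 2.38-fold higher in Duroc than in Landrace (logFC 1.25, SE 0.39), but only DL1 and DL5 lay above all low DFI Landrace boars, and the difference did not pass the quasi-likelihood test (edgeR, adjusted p = 0.0721). It was called with edgeR's likelihood ratio test (adjusted p = 0.0105, with 5.27% of genes called) and with DESeq2 (adjusted p = 0.0393, with 7.48% called), neither of which called the other 3 genes. It fell to a logFC of 0.68 without DL1 (edgeR quasi-likelihood, adjusted p = 0.292). The logFC of *COL4A2* was 0.93 (SE 0.36, edgeR quasi-likelihood adjusted p = 0.15) and 0.42 without DL1 (adjusted p = 0.521), that of *LAMC3* 0.45 (SE 0.22, adjusted p = 0.275) and that of *LAMB2* 0.29 (SE 0.21, adjusted p = 0.497). The last 2 were 0.24 without DL4 and 0.06 without DL5. Thus 0 of the 4 genes were called, against 4.92% of 14636 genes, and 2 of the 4, the collagen chains, had an unadjusted p under 0.05, against 18.8% of genes.

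At high DFI the Duroc against Landrace logFC was 0.67 (SE 0.40, edgeR quasi-likelihood adjusted p = 0.331) for *COL4A1* and 0.45 (SE 0.36, adjusted p = 0.50) for *COL4A2*. These were 0.96 and 0.77 without LH2, and that of *COL4A2* was 0.30 without LH3. For *LAMC3* it was 0.52 (SE 0.22, adjusted p = 0.175), with 4 of the 6 Duroc boars above all 4 Landrace boars, and for *LAMB2* 0.18 (SE 0.21, adjusted p = 0.67), which was 0.06 without LH3, 0.27 without LH4 and 0.02 without DH4. Again 0 of the 4 genes were called, against 5.73% of genes, and *LAMC3* alone had an unadjusted p under 0.05, against 23.0% of genes. The likelihood ratio test, which called 5.71% of genes, and DESeq2, which called 9.41%, also called 0 of the 4.

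The ratio of *COL4A1* to *COL4A2* counts does not depend on library size, although it is not a ratio of molecules, because the lengths of the transcripts were not corrected for. Reads of both breeds were mapped to the same genome build, and an effect of sequence differences between breeds on the counts was not tested. In mammals the genes lie side by side and are transcribed in opposite directions from a shared promoter region. In LL1 to LL5 the ratio was 1.03, 1.03, 1.07, 1.15 and 1.35, and in LH1 to LH4 it was 1.22, 1.10, 1.11 and 1.18. In DL1 to DL5 it was 1.48, 1.34, 1.14, 1.35 and 1.46, and the 6 high DFI Duroc boars ran from 1.26 to 1.48 with a median of 1.30. All Landrace boars but LL5 thus had a ratio of at most 1.22, and all Duroc boars but DL3 one of at least 1.26.

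At high DFI every Duroc boar had a higher ratio than every Landrace boar, with means of 1.33 ± 0.0862 (SD, n = 6) and 1.15 ± 0.0574 (SD, n = 4). The ratio was 1.16-fold higher in Duroc, a difference of 0.21 on the log2 scale (exact two-sided permutation test, p = 0.00952, adjusted over the 2 breed comparisons p = 0.019), which is the smallest p that 210 splits allow. How often other pairs of genes separated these boars is not given here. Of single genes, 23.0% had an unadjusted p under 0.05 between the breeds at high DFI (edgeR quasi-likelihood). The 95% counting intervals of the nearest boars of the breeds overlapped, at 1.10 to 1.36 in LH1 and 1.16 to 1.37 in DH5. All 4 high DFI Landrace boars had the close title numbers and no Duroc boar did. Breed and title numbers thus cannot be told apart in the comparisons at high DFI. At low DFI the means were 1.35 ± 0.135 (SD, n = 5) in Duroc and 1.13 ± 0.134 (SD, n = 5) in Landrace, a difference of 0.266 on the log2 scale or 1.20-fold (exact two-sided permutation test, p = 0.0556, adjusted p = 0.0556). That comparison passed 0.05 without LL5 (difference 0.333, exact permutation p = 0.0317) or DL3 (difference 0.327, exact permutation p = 0.0476), the boars that made the groups overlap. With any other boar left out the exact permutation p was 0.0635 to 0.111. Without LL3 to LL5 it was 0.0952, the smallest p that those group sizes allow. The ratios of the remaining LL1 and LL2 lay below those of all low DFI Duroc boars. Between DFI groups the mean log2 ratio differed by 0.039 (high minus low) in Landrace and by -0.017 in Duroc. Both differences were smaller than the spread between boars (pooled SD of 0.085 at high and 0.158 at low DFI on the log2 scale).

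**Figure D3:**
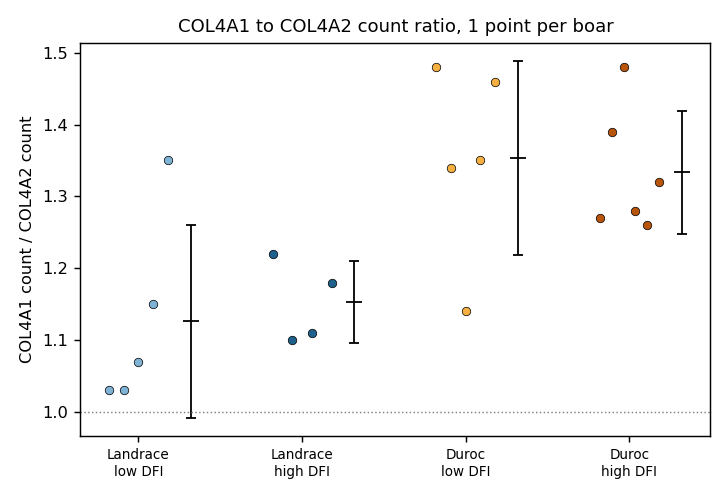
Ratio of *COL4A1* to *COL4A2* counts (y axis, no unit, axis not from 0) in each boar, with group mean and SD beside the points and a dotted line at equal counts. The 6 high DFI Duroc boars, from 1.26 to 1.48, lie above the 4 high DFI Landrace boars, from 1.10 to 1.22.

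Covariation was computed on log2 CPM after the mean of each of the 4 groups had been removed, which takes out the DFI and breed differences, over n = 20 boars and 6 pairs of genes, with permutations within groups. *COL4A1* and *COL4A2* rose and fell together (Pearson r = 0.98, Spearman rho = 0.96, permutation test, both adjusted p = 6e-05, the smallest the permutations can give). The r stayed at 0.98 without DL1 and DL3, the boars farthest from the median, and was 0.96 within Landrace and 0.99 within Duroc. Of the 14635 other genes of the fit, each chain had the other as the gene with the highest r, while the median over all genes was 0.01.

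*LAMB2* followed the collagen chains loosely. Its r with *COL4A1* was 0.50 (permutation test, adjusted p = 0.20) and its rho 0.61 (adjusted p = 0.036), and its r with *COL4A2* was 0.48 (permutation test, adjusted p = 0.20) and its rho 0.55 (adjusted p = 0.05). Without DL1, the boar with the highest collagen IV but an ordinary *LAMB2*, the r became 0.65 and 0.62, both with a permutation adjusted p of 0.032. Without the 2 boars farthest from the median of the collagen chain they were 0.62 and 0.58. Within Landrace these r were 0.30 and 0.22 (n = 9, permutation adjusted p = 0.56 and 0.61), and within Duroc 0.57 and 0.58 (n = 11, permutation adjusted p = 0.24 for both), with rho of 0.83 and 0.82 (permutation adjusted p = 0.04 for both).

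*LAMC3* had correlations near 0 with the collagen chains over the 20 boars. Its r was -0.02 (rho 0.13) with *COL4A1* and -0.06 (rho 0.08) with *COL4A2*, with permutation adjusted p of 0.96 for both r and 0.79 for both rho. Without DL1 and DL4 its r with *COL4A2* was 0.46, and without DL1 and DL3 its r with *COL4A1* was 0.14. The boars left out were not the same, so these values do not compare the chains. Within Landrace the r with *COL4A1* and *COL4A2* were 0.76 and 0.71 (n = 9, permutation adjusted p = 0.10 for both) and both rho were 0.80 (permutation adjusted p = 0.042). Within Duroc the r were -0.21 and -0.26 (n = 11, permutation adjusted p = 0.68 for both) and the rho -0.03 and -0.17, and the difference between the breeds was not tested. Between the laminin chains r was 0.33 and rho 0.29 (permutation test, adjusted p = 0.49 and 0.42), and without DH4 and DL5 r was 0.05.

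The genes most like each of the 4, by the same r among genes with a symbol, are given as a description. After each other, *COL4A1* was most like *ADCY4*, an adenylyl cyclase (r = 0.92), and *N4BP3* (r = 0.92), and *COL4A2* was most like *N4BP3* (r = 0.93) and *RASGRP3*, an exchange factor for Ras proteins (r = 0.90). *LAMB2* was most like *LTBP3*, a latent TGF-beta binding protein of the matrix (r = 0.92), *CAMK1G*, a calmodulin-dependent kinase (r = 0.90), and *POLM*, a DNA polymerase (r = 0.88). *LAMC3* was most like *DTX4*, a ubiquitin ligase (r = 0.85), *NR3C1*, the glucocorticoid receptor (r = 0.78), and *CDK18*, a cyclin-dependent kinase (r = 0.73). These lists shared no gene between the collagen chains, *LAMB2* and *LAMC3*.

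The ranges of several marker sums also shifted between DFI groups, and in bulk tissue more cells of a type and more RNA per cell cannot be told apart. The 4 endothelial markers of 8 on the list that were analysed (*PECAM1*, *KDR*, *TEK*, *TIE1*) summed to 34.3 to 56.4 CPM in low and 47.4 to 102 CPM in high DFI Landrace boars, and to 30.0 to 73.4 and 58.7 to 93.2 CPM in the Duroc groups. The 6 smooth muscle and myoid markers, *ACTA2* among them, summed to 96.4 to 170 and 168 to 276 CPM in Landrace and to 112 to 208 and 138 to 265 CPM in Duroc. The 5 of 6 fibroblast markers summed to 96.4 to 154 and 166 to 248 CPM in Landrace and to 103 to 204 and 150 to 477 CPM in Duroc, and the 4 of 6 Leydig markers to 1240 to 4110 and 4490 to 12000 CPM and to 786 to 5940 and 3320 to 7010 CPM. The ranges of these 4 somatic lists thus began and ended higher at high than at low DFI in both breeds.

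The sums of the other lists overlapped widely between DFI groups or ran the other way. The 7 of 8 Sertoli markers summed to 334 to 417 CPM in low and 326 to 423 CPM in high DFI Landrace boars, and to 358 to 419 and 348 to 617 CPM in Duroc, while the 4 of 6 macrophage markers gave 53.6 to 76.0 and 56.5 to 74.6 CPM in Landrace and 39.9 to 59.0 and 45.2 to 82.0 CPM in Duroc. *MRC1* made up 85.1 to 96.1% of the macrophage sum. Its DFI logFC in Landrace was -0.08. Of the low-level macrophage genes, *CSF1R* and *CD14* had 1.34 and 1.25, but *CD68* had 0.09 (edgeR quasi-likelihood, adjusted p = 0.153, 0.128 and 0.919). The list median of 0.67, beside 0.66 for the smooth muscle and myoid list, thus lay between the unlike values of *CD68* and *CD14*. The 8 spermatid markers summed to 13500 to 17600 CPM in low and 11800 to 15800 CPM in high DFI Landrace boars, and to 14200 to 18700 and 10500 to 15000 CPM in Duroc. The 7 of 8 spermatogonia and spermatocyte markers gave 674 to 803 and 624 to 696 CPM in Landrace and 675 to 777 and 565 to 666 CPM in Duroc. The part of these differences in the DFI differences of the 4 genes was not tested.

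Within groups, the 4 genes were set against the marker lists. These 32 correlations of group-centred values with the 8 summed marker lists were chosen after the data had been seen. How many other genes followed the same sums as closely is not given here, so the correlations are not shown to be particular to the 4 genes. Both collagen chains followed the endothelial markers, *COL4A1* with r = 0.83 and rho = 0.80 (n = 20, permutation test, adjusted p = 0.0067 and 0.011) and *COL4A2* with r = 0.80 and rho = 0.75 (permutation test, adjusted p = 0.0078 and 0.017). For *COL4A1* this r was 0.90 within Landrace, 0.82 within Duroc and 0.81 without DL5 and LH2, and for *COL4A2* 0.87, 0.77 and 0.75. With equal weight for each of the 4 genes of the list, the r were 0.82 and 0.78 (permutation adjusted p = 0.02 and 0.024). With the smooth muscle and myoid markers their r was 0.55 and 0.54 (permutation adjusted p = 0.077 and 0.083).

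*LAMB2* in turn followed the smooth muscle and myoid markers (r = 0.74, rho = 0.76, n = 20, permutation adjusted p = 0.0078 and 0.0093), with r of 0.70 within Landrace, 0.76 within Duroc and 0.78 without DH6 and DL5. With equal weight per gene this r was 0.72 (permutation adjusted p = 0.023). Its r with the macrophage sum, mostly *MRC1*, was 0.72 (rho 0.72, permutation adjusted p = 0.0078 and 0.011), and 0.62 without DH4 (permutation adjusted p = 0.086). With equal weight per gene it was 0.51 (permutation adjusted p = 0.071), and for the single genes 0.71 for *MRC1*, 0.52 for *CSF1R*, 0.49 for *CD68* and -0.04 for *CD14*. Its r with the fibroblast markers was 0.65 (rho 0.55, permutation adjusted p = 0.036 and 0.058), but 0.19 without DH4 and DL5, 0.06 within Landrace and 0.62 with equal weight per gene (permutation adjusted p = 0.052). Its r with the endothelial markers was 0.40 (permutation adjusted p = 0.25). *LAMC3* passed 0.05 with 0 of the 8 lists (lowest permutation adjusted p = 0.20). The spermatid markers went against *COL4A1* (r = -0.60, rho -0.61), *COL4A2* (r = -0.63, rho -0.59) and *LAMB2* (r = -0.62, rho -0.57), with permutation adjusted p of 0.034, 0.024 and 0.036 for r and 0.05, 0.055 and 0.058 for rho. All 3 lost the call for r without DH4, among other boars, and without DH4 and LH2 the r were -0.55, -0.54 and -0.54. *LAMB2* also ran against the spermatogonia and spermatocyte markers (r = -0.67, rho -0.60, permutation adjusted p = 0.017 and 0.05), with r of -0.58 without DH4 (permutation adjusted p = 0.11).

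**Figure D4:**
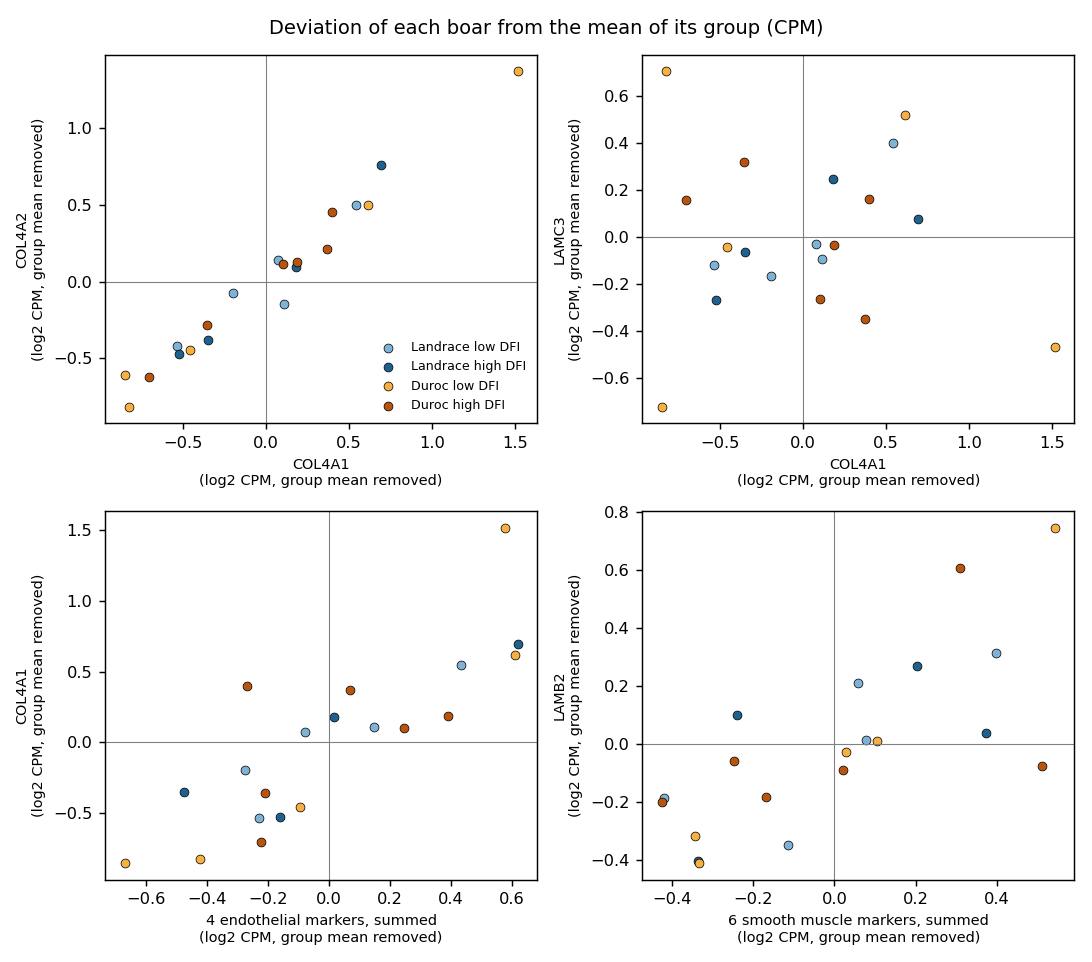
Deviation of each boar from its group mean on the log2 CPM scale for 4 pairs of measures, 1 point per boar, coloured by group. *COL4A2* follows *COL4A1* along a line (r = 0.98) and *LAMC3* scatters (r = -0.02), while *COL4A1* follows the summed endothelial markers (r = 0.83) and *LAMB2* the summed smooth muscle markers (r = 0.74).

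The rest of the basement membrane was read from lists chosen with earlier results of these data known, on which 39 of 51 further genes were tested. With the quasi-likelihood test 0 of the 39 were called in any of the 5 comparisons, the interaction of breed and DFI (0.0% of all genes called) among them. In Landrace 34 of 39 had a positive logFC for high against low DFI, with a median of 0.27 against -0.01 over all genes, and 13 were higher at an unadjusted p under 0.05, or 33.3% against 12.1% of all genes. In Duroc 31 of 39 were positive, with a median of 0.24 against 0.01, and 14 were higher (35.9% against 11.3%) and 1 lower. Between breeds 25 of 39 were positive at either DFI level, with medians of 0.06 and 0.07 against 0.0 and -0.01 over all genes. At an unadjusted p under 0.05, 5 were higher and 0 lower at low DFI and 2 higher and 3 lower at high DFI, or 12.8% at either level, below the 18.8% and 23.0% of all genes.

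The other collagen IV chains had smaller DFI differences than *COL4A1* and *COL4A2* in Landrace. The logFC of *COL4A5* was 0.49 (SE 0.15) in Landrace and 0.56 (SE 0.19) in Duroc (edgeR quasi-likelihood, adjusted p = 0.143 and 0.149). Those of *COL4A6* were 0.21 and 0.18, and those of *COL4A3* and *COL4A4*, chains found in specialised membranes, were each 0.22 and 0.36. *COL4A6* had the smallest p of the lists in both breed contrasts, with a Duroc against Landrace logFC of 0.47 at low DFI (edgeR quasi-likelihood, adjusted p = 0.0686) and 0.45 at high DFI (adjusted p = 0.0785).

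The other laminin chains had DFI logFC that were smaller or negative. *LAMB1* and *LAMC1*, the beta and gamma chains of the common laminins, had logFC of 0.04 (SE 0.10) and 0.10 (SE 0.13) in Landrace and -0.15 (SE 0.12) and -0.04 (SE 0.09) in Duroc. *LAMA4*, the alpha chain of vessel laminins, had 0.15 (SE 0.10) and 0.05 (SE 0.09). The median over the 6 tested chains was 0.07 in Landrace and -0.19 in Duroc, and *LAMB3* had -0.39 (SE 0.23) and -0.46 (SE 0.21), with a quasi-likelihood adjusted p of 0.435 and 0.236. *LAMA3* had the smallest interaction p on the lists, with logFC of 0.25 in Landrace and -0.24 in Duroc and an interaction adjusted p of 1.0 in edgeR's quasi-likelihood test. *LAMA1*, *LAMA2* and *LAMA5* were not analysed here.

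Several linkers had DFI logFC close to those of the 4 genes. *NID2*, a nidogen, had 0.55 (SE 0.11) in Landrace and 0.52 (SE 0.15) in Duroc (edgeR quasi-likelihood, adjusted p = 0.0972 and 0.123), and *NID1* 0.58 (SE 0.22) and 1.07 (SE 0.33) (adjusted p = 0.216 and 0.132). *HSPG2*, which encodes perlecan, had 0.86 (SE 0.20) and 0.71 (SE 0.28) (adjusted p = 0.10 and 0.192). *FBLN1*, a fibulin, had 0.28 and 0.53, and *COL15A1*, a collagen linking membrane and stroma, 0.90 and 0.52. Of 12 linkers 5 were higher at an unadjusted p under 0.05 in each breed, beside 12.1% of all genes in Landrace and 11.3% in Duroc, with medians of 0.42 and 0.47. At low DFI *COL15A1* and *HSPG2* also had Duroc against Landrace logFC of 0.84 and 0.71 (edgeR quasi-likelihood, adjusted p = 0.0986 and 0.147).

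All 10 tested receptors had a positive DFI logFC in both breeds, with medians of 0.45 in Landrace and 0.31 in Duroc, and 5 of 10 in each breed were higher at an unadjusted p under 0.05, beside the same 12.1% and 11.3% of all genes. The collagen-binding integrin *ITGA1* had 0.73 (SE 0.16) and 0.52 (SE 0.17), and *ITGB4*, part of a laminin-binding integrin, 0.64 (SE 0.30) and 0.88 (SE 0.23). Of the collagen-modifying enzymes, the lysyl hydroxylases *PLOD1* and *PLOD2* had 0.55 and 0.63 in Landrace and 0.42 and 0.30 in Duroc, and *PLOD3* 0.12 in both. The prolyl hydroxylase *P4HA2* had -0.11 and -0.17, and its Duroc against Landrace logFC at high DFI was -0.30, beside -0.35 for *PLOD2* (edgeR quasi-likelihood, adjusted p = 0.177 and 0.134). The secretion factor *MIA3* had 0.05 and -0.07. *NID2*, *ITGB4* and other list genes are on the study's own gene lists from these boars, so their DFI differences are not independent evidence.

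**Figure D5:**
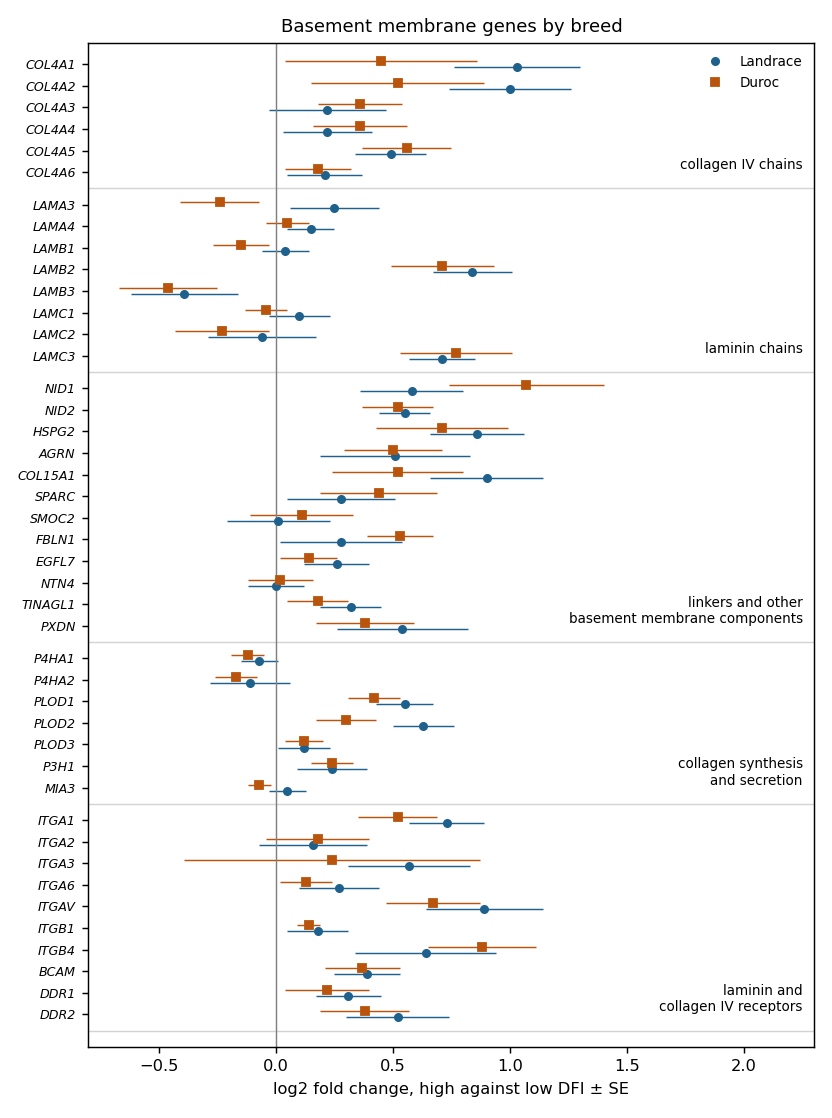
Log2 fold change of high against low DFI (x axis, points with SE bars) for the 4 genes and 39 further basement membrane genes by list, Landrace as circles and Duroc as squares. *LAMB1* and *LAMC1* lie near 0 in both breeds, while *LAMB2*, *LAMC3*, *HSPG2* and *NID2* lie between 0.52 and 0.86.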

How the data were processed

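Testis RNA of 20 boars was sequenced by the authors as 50 bp single-end reads from non-stranded TruSeq RNA v2 libraries, mapped with TopHat 2.0.12 to Sus scrofa 10.2 and counted per Ensembl gene (release 75) with HTSeq, ignoring strand. The deposited values are raw counts, whole numbers without normalization, with 1 as the lowest value in every library. Whether 0 was replaced is not stated. Totals were 18086448 to 51782156 counts, and no pair of boars within a group had counts alike (chi-square per degree of freedom at least 17.2).

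Counts were analysed with edgeR 4.0.16 in R 4.3.3. Genes above 1 CPM in 50% or more of the boars were kept and libraries were scaled with TMM. Differences were tested by quasi-likelihood, with p-values adjusted over all kept genes (Benjamini-Hochberg, threshold 0.05). DFI groups were compared within each breed, and breeds and the interaction in 1 fit of 20 boars. The SE is the logFC divided by the square root of F, in absolute value. Ratios were compared by exact permutation (scipy 1.17.1), and correlations by 100000 permutations within groups on log2 CPM with 0.5 CPM added. The script was tested on simulated data. Alternatives were the likelihood ratio test, DESeq2 1.42.0, RLE scaling, other filters, joint or partial sets of boars and each boar left out.

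The 4 genes and the lists were chosen with earlier results of these data known. Named genes were the 4, the main network genes, the 3 list genes with the smallest p in each comparison, and the 3 genes most like each of the 4. *COL4A1* was matched by the identifier that the series' gene lists give, other symbols by a table of pig gene names, and list genes without a match were not analysed here. No sequences or coordinates of the build used were at hand.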

Additional observations from a re-analysis of the deposited data

Results flagged for a closer look

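Within each group the boar farthest from the others was compared with Dixon's 95% limit, for the 4 genes and the collagen ratio in 4 groups. Of 20 such sets 2 exceeded it, where chance gives about 1 in 20. *LAMC3* in LL4 was at 45.1 CPM, above the other low DFI Landrace boars at 30.2 to 33.3 CPM. On log2 CPM its gap was 0.76 of the range (limit 0.71). LL4 was also the highest low DFI Landrace boar for *COL4A1*, *COL4A2* and *LAMB2*. *LAMB2* in DH4 was at 45.7 CPM, above the other high DFI Duroc boars at 25.9 to 28.6 CPM. On log2 CPM its gap was 0.823 of the range (limit 0.625). Without DH4 the *LAMB2* logFC for high against low DFI in Duroc was 0.56 in place of 0.71, and that for Duroc against Landrace at high DFI 0.02 in place of 0.18.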

How the results depend on the processing

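The number of genes called for high against low DFI in Landrace, 0 in edgeR's quasi-likelihood test, was 767 with the likelihood ratio test, 828 with DESeq2, 324 in the joint fit of all 20 boars, 1 without a filter and 1 with at least 10 counts in every boar, and 0 to 2 with each boar left out. A total of 2417 genes had an unadjusted p under 0.05. In Duroc it was 2, and 376 with the likelihood ratio test, 859 with DESeq2, 0 without a filter, 0 in the joint fit and 0 to 17 with each boar left out (17 without DL5). For the breeds it was 720 at low DFI (1095 with DESeq2, 477 without LL3 to LL5, 455 to 856 with each boar left out) and 838 at high DFI (1377 with DESeq2, 563 to 915). For the interaction it was 0, and 2 with the likelihood ratio test, 2 with DESeq2 and 0 to 1 with each boar left out. The cause of these shifts was not tested.

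With each boar left out the Duroc DFI logFC ranged from 0.26 to 1.01 for *COL4A1* and from 0.34 to 1.03 for *COL4A2*, with the highest without DL1. The *COL4A1* breed difference at low DFI was called without DL3 or DL4 (logFC 1.44 for both, edgeR quasi-likelihood adjusted p = 0.0415 and 0.0444). The interaction values changed sign for *COL4A2* (0.03 without DL1, range -0.66 to 0.03), *LAMB2* (0.12 without DL5, range -0.27 to 0.12) and *LAMC3* (range -0.08 to 0.27, and -0.09 without LL3 to LL5). The collagen ratio difference at low DFI ranged from 0.231 to 0.333 (exact permutation p from 0.0317 to 0.111) and at high DFI from 0.179 to 0.238 (exact permutation p from 0.0159 to 0.0238). At high DFI these p follow from the group sizes alone, because the full groups did not overlap. The r of *COL4A1* and *COL4A2* was 0.97 to 0.99. The r of *LAMB2* with them was 0.43 to 0.65 and 0.40 to 0.62, that of *LAMC3* was -0.28 to 0.29 and -0.27 to 0.23, and within Landrace 0.76 and 0.71. Of the 9 marker correlations that passed 0.05, the r of the collagen chains with the endothelial markers and of *LAMB2* with the myoid markers passed without any 1 boar and with equal weight per gene, and none of the 9 passed within a breed alone. Each library came from a different boar and no pairs are described, so no paired analysis was made. At 447 or more counts per boar, depth added little error to the levels of the 4 genes. For the collagen ratio, the counting intervals of the nearest high DFI boars of the breeds overlapped.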
